A study of Mus musculus with 924 samples.

Results

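Dentate granule neurons were compared with pyramidal neurons of CA2/3 among single nuclei of the mouse hippocampus. Of 924 nuclei in all, 296 were chosen by markers, 236 granule nuclei and 60 CA2/3 pyramidal nuclei. A nucleus from a dentate gyrus (DG) dissection was taken as granule when it had Prox1, at least 2 of the 5 genes C1ql2, C1ql3, Fam163b, Glis3 and Sema5a, and no Gad2. A nucleus from a CA2/3 dissection was taken as pyramidal when it had at least 3 of the 6 genes Cpne7, Sv2b, Neurod6, Dkk3, Tenm4 and Khdrbs3, at most 1 of the 4 genes Prox1, C1ql2, Glis3 and Sema5a, and no Gad2. All these nuclei came from C57BL/6 mice of 12 weeks, with no transgene or treatment named in the labels. The regions were microdissected and preserved in RNAlater, and nuclei were sorted into plates and read by a Smart-seq2 type protocol. DG dissections came from 4 preparations, numbered 1 to 4, and CA2/3 dissections from preparations 1 and 3. The labels do not say whether a preparation is 1 animal, so p-values measure the spread between preparations only.

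Granule neurons form the cell layer of the dentate gyrus. Their axons, the mossy fibres, carry zinc-filled glutamate vesicles to large boutons on the dendrites of CA3 pyramidal neurons, where release is tuned by presynaptic receptors and by cyclic AMP. CA3 pyramidal neurons excite one another and project to CA1, and the small CA2 field lies between CA3 and CA1. The CA2/3 dissection joined both fields, and its pyramidal nuclei were not divided further here.

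The granule nuclei numbered 89 of 135, 39 of 40, 58 of 72 and 50 of 58 DG nuclei in preparations 1 to 4. The pyramidal nuclei numbered 37 of 56 and 23 of 61 CA2/3 nuclei in preparations 1 and 3. Among DG nuclei, 41 were left out for Gad2, 26 for lack of Prox1 and 2 for too few markers. Among CA2/3 nuclei, 27 were left out for Gad2, 21 for too few markers and 9 for more than 1 granule marker. Few nuclei lay at the thresholds: 3 granule nuclei had exactly 2 of the 5 markers while 217 had 4 or 5, and 1 DG nucleus fell just outside with 1. Of the pyramidal nuclei 4 had exactly 3 of the 6 markers and 54 had 5 or 6, and 3 CA2/3 nuclei fell just outside with 2. The markers follow from the choice and serve only as a description, with no test. Levels are means over the nuclei of a preparation of log2(value + 1), where value is the deposited expression on the TPM scale. The level of Prox1, a transcription factor that sets granule identity, was 9.47, 10.04, 10.09 and 10.05 in granule preparations 1 to 4 and 1.01 and 0.00 in CA2/3 preparations 1 and 3. C1ql2, which codes for a secreted C1q-like synaptic organiser, stood at 10.26, 10.09, 9.45 and 10.11 against 0.21 and 0.46. Cpne7, a copine, stood at 1.41, 0.63, 0.77 and 0.75 against 12.39 and 11.85, and the transcription factor Neurod6 at 0.24, 0.14, 0.00 and 0.12 against 10.27 and 8.32. The CA2/3 markers do not separate CA3 from CA1: in the pyramidal nuclei of the CA1 dissections the level of Cpne7 was 11.31 and 12.61.

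CA2/3 nuclei held more detected genes. The median number of genes above a value of 1 per nucleus was 4635, 4845, 4709 and 4888 in the granule preparations and 6216 and 5538 in the CA2/3 preparations, so the groups did not overlap. The means of these medians were 4769 ± 118 (SD, n = 4) and 5877 ± 479 (SD, n = 2), and the exact two-sided permutation p was 0.133, the smallest that 4 preparations against 2 allow. The table holds no read counts, and no 2 nuclei had identical profiles.

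Differences between the cell types were tested with limma on the preparation means, 4 against 2, for 11034 genes outside the marker rule. Over all genes of the fit the median difference was −0.48, granule minus CA2/3, so each difference below is given on the log2 scale relative to that median. At an adjusted p of 0.05, 2339 genes were called, 21.2% of those tested. Of the tested genes 4.78% were higher in granule nuclei and 16.4% (1812 genes) were lower. The preparations of both cell types did not overlap for 9.66% of genes on the higher and 31.4% on the lower side, called or not. After quantile normalization, which gives every preparation the same distribution, the split was 878 higher (7.96%) and 909 lower (8.24%), so the excess of lower calls depended on the scaling. With detected genes per nucleus added as a covariate 5.27% of genes were called, 334 higher and 248 lower. A difference of mean logs weighs the share of nuclei in which a gene was detected. When the values of a preparation were averaged before the log was taken, 808 genes were called, 48.5% of them higher, and the median size of the difference over 93 called genes described below was 3.09 in place of 4.55. Of those 93 calls 34 were lost with the covariate and 23 with averaging before the log. Detected genes did not overlap between the cell types, so the covariate cannot be fully told apart from cell type. A call lost with the covariate can reflect a wider standard error as well as a smaller difference. With averaging before the log a call could be lost although the difference grew (Zfp536 and Dcn, below). The share of all genes called, and its split by direction, also moved between alternatives. Changed counts of a list below are therefore not taken as a trait of that list.

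**Figure D1:**
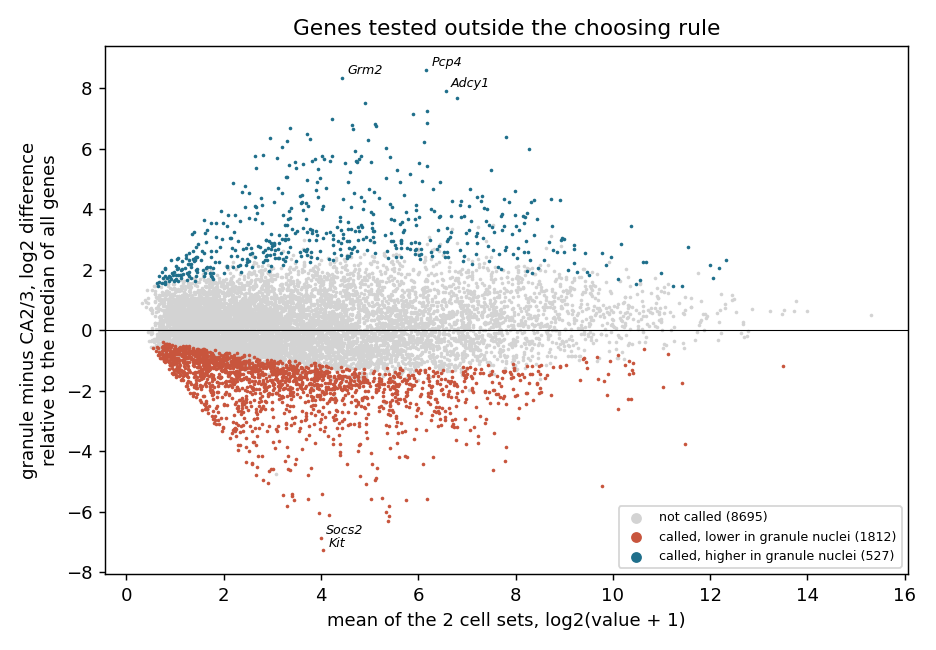
Difference between granule and CA2/3 nuclei (vertical axis, log2 relative to the median of all genes) against the mean level of the 2 cell sets (horizontal axis, log2(value + 1)), with 1 point per tested gene. Blue points are the genes called higher (4.78% of all) and red points those called lower (16.4%) in granule nuclei, and the largest differences belong to Pcp4 and Kit.

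Pcp4 and Grm2 had the largest differences on the granule side. Pcp4 codes for a small calmodulin-binding protein that is also known from CA2. Its level was 9.40, 10.11, 11.05 and 10.35 in the granule preparations and 3.71 and 0.47 in the CA2/3 preparations. The groups lay apart although the CA2/3 preparations differed from each other, with Pcp4 detected in 35.1% and 4.35% of their nuclei. The difference was 8.61 ± 0.79 (SE, limma adjusted p = 1.4e-05). Grm2, the presynaptic metabotropic glutamate receptor mGluR2 that dampens mossy fibre release, had levels of 7.69, 9.34, 7.77 and 8.66 against 0.28 and 0.71. It was detected in 80.9% to 94.9% of granule nuclei by preparation and in 2.70% and 8.70% of CA2/3 nuclei, and the difference was 8.34 ± 0.63 (SE, limma adjusted p = 3.4e-06). Both genes stood far above every CA2/3 preparation in all 4 granule preparations. Averaged before the log, the differences of Pcp4 and Grm2 were 4.12 and 4.39.

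The promoters of 3 genes higher in granule nuclei and, for contrast, 1 that was lower are shown to display which held a searched motif. They are the 250 bases before a RefSeq start (GRCm38.p6), read 5′ to 3′ on the gene's strand. Where several windows were listed for a gene only the first was searched, and Dock10 had 2, Pkig 3 and Cnr1 3. Capitals mark a match to CAGATG on either strand (CATCTG on the other), the E-box bound by factors of the NEUROD type. Grm2 lies at chr9:106656110-106656359 (minus strand), Dock10 at chr1:80758554-80758803 (minus), Pkig at chr2:163658136-163658385 (plus) and Cnr1, which was lower in granule nuclei, at chr4:33924014-33924263 (plus).
Grm2: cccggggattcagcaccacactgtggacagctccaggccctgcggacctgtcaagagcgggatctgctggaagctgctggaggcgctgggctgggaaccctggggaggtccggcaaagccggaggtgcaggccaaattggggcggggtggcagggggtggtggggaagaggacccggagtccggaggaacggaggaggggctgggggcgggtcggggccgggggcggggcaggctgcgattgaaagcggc
Dock10: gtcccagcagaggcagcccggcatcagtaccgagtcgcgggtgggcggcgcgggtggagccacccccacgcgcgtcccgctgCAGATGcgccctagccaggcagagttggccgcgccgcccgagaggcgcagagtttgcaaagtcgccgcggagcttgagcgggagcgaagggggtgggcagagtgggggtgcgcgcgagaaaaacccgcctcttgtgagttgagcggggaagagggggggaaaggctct
Pkig: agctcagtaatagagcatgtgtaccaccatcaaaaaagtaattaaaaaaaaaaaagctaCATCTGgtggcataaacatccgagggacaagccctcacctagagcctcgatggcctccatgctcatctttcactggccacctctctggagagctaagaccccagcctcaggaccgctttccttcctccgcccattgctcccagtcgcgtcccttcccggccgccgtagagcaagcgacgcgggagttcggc
Cnr1: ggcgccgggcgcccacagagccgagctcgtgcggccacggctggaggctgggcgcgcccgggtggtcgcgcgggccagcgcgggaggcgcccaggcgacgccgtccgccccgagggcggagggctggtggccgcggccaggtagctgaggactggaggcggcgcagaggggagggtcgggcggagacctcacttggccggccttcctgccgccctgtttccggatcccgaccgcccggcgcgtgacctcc
Among the 14 largest differences on each side, 12 higher and 11 lower genes had a window by symbol, and 2 and 0 of them held the E-box. CAGATG was in 9.70% of the windows of 8196 tested genes that matched, in 11.8% of 365 windows of genes called higher and in 9.51% of 1367 windows of genes called lower. The cyclic AMP response element TGACGTCA, which reads the same on both strands and shares no position with the E-box in the windows shown, was in 3.01%, 1.64% and 3.22% of the same windows and in none of those of the largest differences. These shares describe the letters in the first listed windows only.

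Adcy1, a calcium-stimulated adenylyl cyclase, had levels of 9.66, 10.21, 10.42 and 10.84 against 3.09 and 2.60 (difference 7.91 ± 0.54 SE, limma adjusted p = 2.0e-06). In CA1 pyramidal nuclei its level was 8.30 and 6.44, above both CA2/3 preparations. Calb1, the calcium buffer calbindin, had levels of 7.64, 8.70, 8.62 and 8.73 against 1.84 and 0.92 (difference 7.52 ± 0.60). Granule preparation 1 was the lowest of the 4, and still lay far above CA2/3. Dgkh, a diacylglycerol kinase, and Pkig, an inhibitor of protein kinase A, were higher by 6.76 ± 0.57 and 6.65 ± 0.74, and Pkig lost its call with the detected-gene covariate. On the list of cyclic nucleotide genes 7 of 27 tested were higher and 7 lower, and 11 and 6 without CA2/3 preparation 1. The phosphodiesterases were divided: Pde1b was higher by 5.61 ± 0.59 and Pde7b by 4.07 ± 0.68, while Pde1a was lower, with levels of 1.99, 2.21, 1.69 and 2.16 against 8.22 and 7.88 (difference −5.56 ± 0.53). Of 32 calcium-binding genes and calcium-dependent kinases, 8 were higher and 9 lower. Without CA2/3 preparation 1 these were 13 and 7, and without preparation 3 they were 5 and 12. Camk2g, a subunit of calmodulin kinase II, was higher by 4.91 ± 0.54, a call lost with averaging before the log (1.49).

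Of 42 vesicle release genes tested, 10 were higher and 6 lower, and 3 of the higher ones were among the 14 largest differences. Without CA2/3 preparation 3 these counts were 10 and 15, and with the covariate 5 and 0. Slc30a3 codes for ZnT3, the transporter that loads zinc into synaptic vesicles, and its level was 9.47, 8.93, 9.91 and 9.20 against 2.58 and 3.41 (difference 6.85 ± 0.56, limma adjusted p = 6.1e-06). Synpr, the vesicle protein synaptoporin, had levels of 9.40, 8.92, 9.80 and 10.12 against 2.52 and 3.05 (difference 7.25 ± 0.56). Stxbp6, the syntaxin-binding protein amisyn, was higher, with levels of 7.44, 7.80, 6.66 and 8.09 against 0.97 in both CA2/3 preparations. Rph3a, a Rab3 effector on vesicles, was higher by 4.69 ± 0.57, but its difference was 1.08 and was not called when values were averaged before the log.

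**Figure D2:**
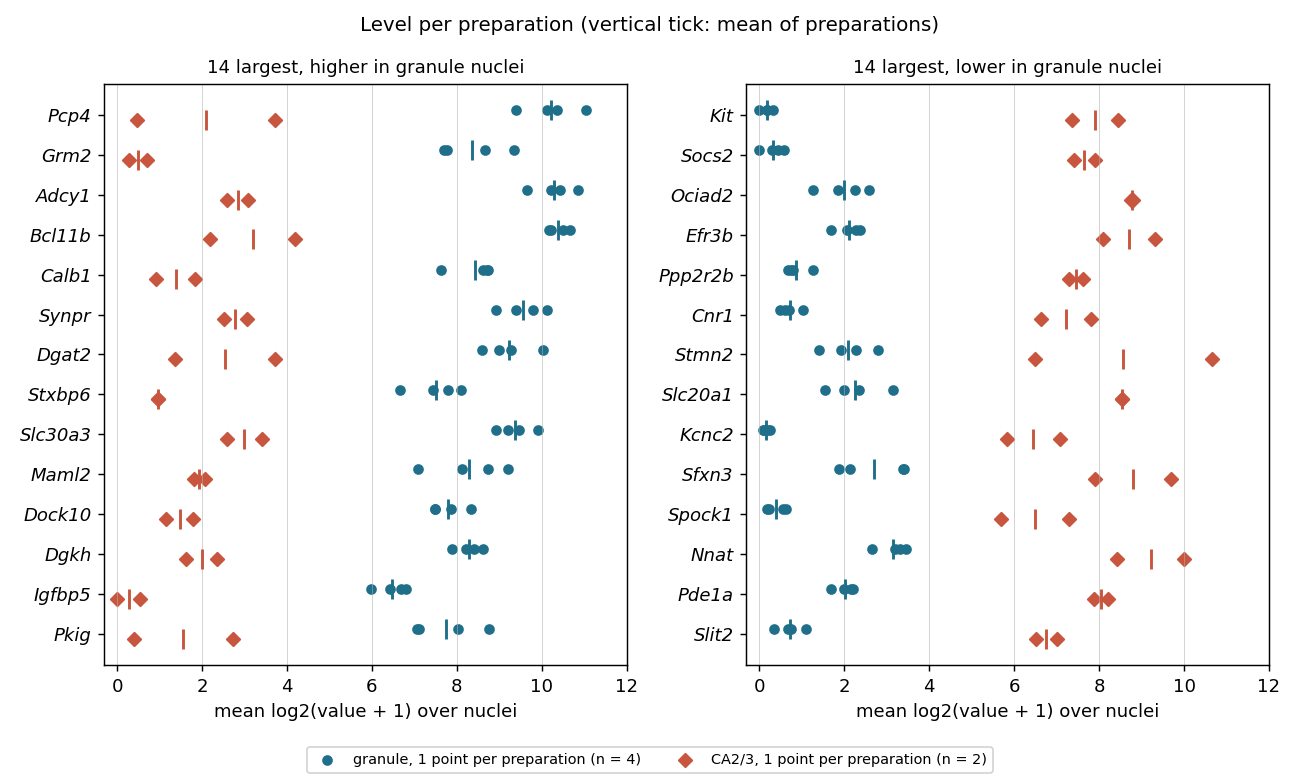
Level of the 14 genes with the largest differences on each side (horizontal axis, mean log2(value + 1) over nuclei), with 1 point per preparation and a tick at the mean. For all 28 genes the 4 granule points and the 2 CA2/3 points lie apart. Stmn2 and Pcp4 spread most between the CA2/3 preparations.

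Transcription factors on the list of 48 tested were higher in 14 cases and lower in 7. The counts were 9 and 10 without CA2/3 preparation 3, and 6 and 4 with averaging before the log. Bcl11b, the zinc finger factor also called Ctip2, had levels of 10.16, 10.22, 10.67 and 10.49 against 4.19 and 2.19 (difference 7.67 ± 0.59, limma adjusted p = 4.0e-06). The CA1 nuclei, at 7.61 and 4.34, were above CA2/3 and below the granule preparations. Mef2c, a MADS-box factor of neurons, was higher by 5.74 ± 0.59, Rfx3, a factor of ciliary genes, by 5.32 ± 0.50 and the zinc finger gene Zfp536 by 4.54 ± 0.56. Zfp536 lost its call when values were averaged before the log. The other genes at the top of the granule side were Dgat2, an enzyme of triglyceride synthesis (7.17), Maml2, a Notch coactivator (6.82), Dock10, an exchange factor for small GTPases (6.79), and Igfbp5, which binds insulin-like growth factors (6.68). Igfbp5 had levels of 5.97, 6.81, 6.43 and 6.69 in granule nuclei and 0.54 and 0.00 in CA2/3 nuclei.

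Of 20 genes listed as known granule markers outside the rule, 18 were higher and none lower, and with the detected-gene covariate 12 were higher. The list was chosen with results of these data known, and its median difference was 5.50. Of 17 listed CA3 and CA2 markers, 16 were lower and none higher (7 lower with the covariate), with a median of −3.97. The median over all tested genes is 0 by the way differences are given.

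On the CA2/3 side the largest difference was that of Kit, a receptor tyrosine kinase. Its level was 0.32, 0.00, 0.18 and 0.18 in granule nuclei against 8.46 and 7.37 in CA2/3 nuclei (difference −7.27 ± 0.49, limma adjusted p = 6.6e-07). It was detected in 0.00% to 4.49% of granule nuclei by preparation and in 86.5% and 82.6% of CA2/3 nuclei. In CA1 nuclei the level of Kit was 5.85 and 6.60, below CA2/3. Socs2, a feedback inhibitor of cytokine and growth hormone signalling, followed with levels of 0.44, 0.00, 0.59 and 0.29 against 7.40 and 7.91 (difference −6.85 ± 0.47). Cnr1, the cannabinoid receptor CB1, had levels of 0.61, 0.50, 1.04 and 0.71 against 7.80 and 6.62 and a difference of −6.02 ± 0.51. All of these were near 0 in every granule preparation.

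Ociad2, an endosomal and mitochondrial protein that was also on the mossy cell list, had levels of 2.25, 2.57, 1.28 and 1.86 against 8.79 and 8.76. Efr3b, a membrane anchor for a phosphatidylinositol kinase, was lower (−6.13), as were Ppp2r2b, a regulatory subunit of protein phosphatase 2A (−6.11), and Slc20a1, a phosphate transporter (−5.81). Sfxn3, a mitochondrial sideroflexin, and Nnat, the imprinted gene neuronatin, gave −5.62 and −5.58. The call of Nnat was lost with the detected-gene covariate. Spock1, a secreted proteoglycan of the testican family, had levels of 0.63, 0.56, 0.24 and 0.18 against 7.30 and 5.69. Cpe, the carboxypeptidase that trims neuropeptide precursors, was abundant in CA2/3 nuclei at 13.07 and 12.08 and stood at 7.21, 7.08, 6.62 and 6.98 in granule nuclei (difference −5.13 ± 0.48). Its averages before the log gave −2.92.

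Of 42 cytoskeletal and growth cone genes, 2 were higher and 8 lower, shares near the 4.78% and 16.4% over all genes. Stmn2, the microtubule regulator stathmin 2, had levels of 2.79, 2.28, 1.92 and 1.41 against 10.65 and 6.50 (difference −6.00 ± 0.90, limma adjusted p = 0.00025), so the 2 CA2/3 preparations stood far apart from each other. Gap43, a growth cone protein, had 0.30, 0.00, 0.32 and 0.58 against 6.93 and 2.59, and its difference of −3.99 ± 0.82 was −1.99 without CA2/3 preparation 1. Both lost their call with the detected-gene covariate, and the sign of Gap43 changed. Marcks and Marcksl1, substrates of protein kinase C at the membrane, were higher by 5.08 ± 0.57 and 5.57 ± 0.56. The median difference of the 42 genes was 0.38, and it was 0.82 without CA2/3 preparation 1 and 0.06 without preparation 3. Of 45 guidance genes tested, 6 were higher and 12 lower, and 3 and 15 without CA2/3 preparation 3. Slit2, a secreted repellent, had levels of 0.74, 0.36, 1.11 and 0.67 against 7.01 and 6.51 (difference −5.56 ± 0.48). The semaphorin receptor gene Plxna1 (−4.43 ± 0.54) and the ephrin receptor gene Ephb6 (−3.75 ± 0.53) were lower, and Epha7, another ephrin receptor, was higher by 4.25 ± 0.48.

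Among 63 synaptic adhesion genes 13 were higher and 17 lower, and 2 and 2 with the detected-gene covariate. Lrrtm4, a postsynaptic partner of heparan sulfate proteoglycans, had levels of 6.35, 7.42, 7.31 and 7.22 against 2.29 and 3.48 (difference 4.66 ± 0.61). Kirrel3, a homophilic adhesion protein, was higher by 4.89 ± 0.61, and Gpc4, a glypican, by 4.53 ± 0.57. These 3 genes lost their call with the covariate. Cntnap2, a neurexin relative of axons, had levels of 0.61, 1.07, 0.88 and 1.49 against 6.04 and 5.77 (difference −4.42 ± 0.47). Pvrl3, which codes for nectin-3, was lower with a difference of −4.16 ± 0.46, a call that ended with the covariate. On the list of 28 proteoglycans and heparan sulfate enzymes 2 were higher and 8 lower, and 5 and 8 without CA2/3 preparation 1. Sulf2, a heparan sulfatase, gave −5.47 ± 0.47 and lost its call when values were averaged before the log (−5.25). The secreted protein gene Nell1 was listed at 0 in granule preparations 2 to 4 and had a level of 0.17 in preparation 1, against 4.86 and 5.73.

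Potassium channel genes went both ways, 10 of 38 higher and 6 lower, and 3 and 3 with the covariate. Kcnc4 and Kcnc2, both of the Kv3 family, lay on opposite sides. The level of Kcnc4 was 7.27, 7.59, 7.38 and 7.46 against 1.98 and 1.96 (difference 5.93 ± 0.55), and that of Kcnc2 was 0.22, 0.10, 0.25 and 0.09 against 7.07 and 5.82 (−5.81 ± 0.47). Kcnd2, the A-type channel Kv4.2, was higher by 3.90 ± 0.71, and the calcium-activated channel gene Kcnn2 was lower (−4.18 ± 0.57). In CA1 nuclei the level of Kcnn2 was 9.90 and 9.99, above both CA2/3 preparations at 7.61 and 8.25. Of 24 sodium and calcium channel genes, 4 were higher and 6 lower, which became 8 and 5 without CA2/3 preparation 1 and 2 and 0 with the covariate. The 4 were Cacng3, an AMPA receptor auxiliary subunit (3.47 ± 0.60), Scn3b (3.07 ± 0.50), Cacna1h, a T-type calcium channel (3.07 ± 0.57), and Scn3a (2.78 ± 0.62). Cacng3, Cacna1h and Scn3a lost their calls with the covariate, and Scn3b lost its call in preparations 1 and 3 alone.

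Of 13 GABA receptor genes, 5 were higher and 2 lower. Gabrd, the delta subunit of extrasynaptic receptors that is known for granule cells, had levels of 4.28, 3.67, 5.52 and 4.34 against 0.75 and 0.91 (difference 4.10 ± 0.58, limma adjusted p = 0.00073, lost with the covariate). Gabra4, which partners it, was higher by 3.93 ± 0.63. Another higher gene, Gabrb2 (2.20), and the 2 lower ones, Gabra3 (−1.34) and Gabrg3 (−2.09), are named here after their values were seen. The GABA receptor counts were 7 and 1 without CA2/3 preparation 1, 2 and 3 without preparation 3, and 3 and 0 with the covariate. Of 14 AMPA, kainate and NMDA receptor genes none was higher and 3 were lower, although the median difference of the list was 0.82. These were Grik4, a kainate receptor subunit of CA3 (−2.65 ± 0.59), Gria4 (−2.12 ± 0.45) and Grin3a (−1.02 ± 0.39), and none kept its call with the covariate. After quantile normalization 2 were higher and 2 lower, and with either CA2/3 preparation left out 2 were higher and 3 lower. Of 5 metabotropic glutamate receptors Grm2 was higher and Grm3 lower (−0.66 ± 0.33). The Grm3 call was lost in 11 alternatives, among them quantile normalization, the covariate and averaging before the log.

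**Figure D3:**
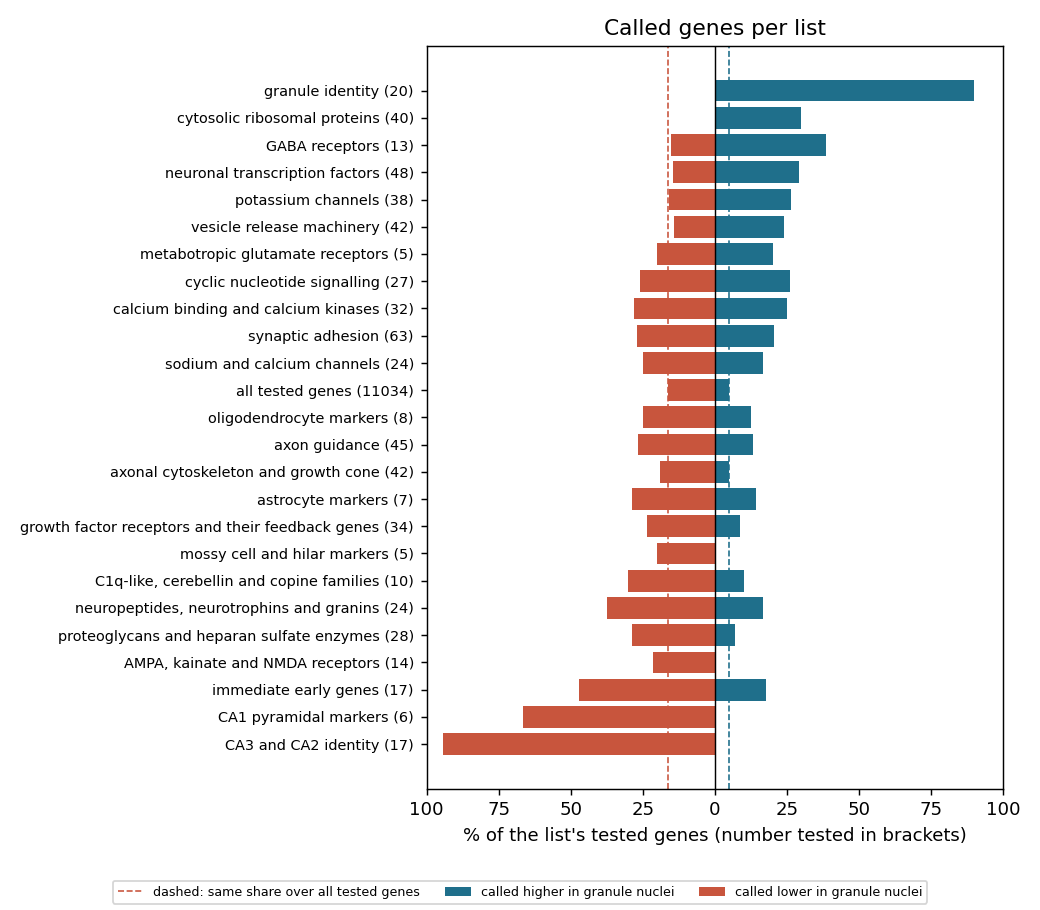
Share of each gene list called higher (blue, to the right) or lower (red, to the left) in granule nuclei, with the number of tested genes in brackets. Only lists with at least 5 tested genes are drawn, and dashed lines give the shares over all 11034 genes, 4.78% and 16.4%.

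Peptide genes and their receptors counted 4 higher and 9 lower of 24. The counts were 6 and 5 without CA2/3 preparation 1, 4 and 12 without preparation 3, and 1 and 1 with the covariate. Adcyap1r1, the PACAP receptor, had levels of 8.23, 9.40, 9.55 and 8.83 against 3.22 and 3.25 (difference 6.24 ± 0.57, limma adjusted p = 1.9e-05). Npy1r, a neuropeptide Y receptor, was higher by 4.12 ± 0.56. Pdyn, which codes for the precursor of dynorphin, a mossy fibre peptide, was detected in 31.5%, 30.8%, 37.9% and 28% of granule nuclei. It was detected in 0 of 60 CA2/3 nuclei pooled over both preparations, which allows up to 5% of nuclei with a detected value. That limit takes the nuclei as independent and covers counting error only. It says nothing of the spread between preparations or of transcripts missed in a nucleus. The Pdyn and Npy1r calls were lost with the covariate. On the list of 34 growth factor receptors and feedback genes 3 were higher and 8 lower. Fgfr1, a fibroblast growth factor receptor, had 4.21, 3.73, 3.64 and 3.09 against 7.52 and 7.52 (−3.38 ± 0.57). Fgf13 was higher (2.98 ± 0.78) and Fgfr3 lower (−1.35 ± 0.54), and both calls ended in several settings. Of 10 genes of the C1q-like, cerebellin and copine families, C1qtnf4 was higher (4.43 ± 0.73) and Cpne2 (−2.54 ± 0.39), Cpne3 (−0.81 ± 0.36) and Cpne9 were lower. The calls of C1qtnf4, Cpne3 and Cpne9 were lost with the covariate.

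Immediate early genes, which neurons switch on with activity, were higher in 3 and lower in 8 of 17 cases. Arc, a regulator of AMPA receptor traffic, had levels of 0.12, 0.24, 0.20 and 0.12 against 4.46 and 4.38 (difference −3.77 ± 0.36). Nr4a3, an orphan nuclear receptor, had 0.81, 0.45, 0.28 and 0.22 against 6.20 and 4.77 (−4.56 ± 0.48), and the kinase gene Plk2 was lower as well (−3.63 ± 0.69). Jun, a subunit of AP-1, was higher, with 6.96, 5.72, 7.14 and 7.18 against 3.91 and 2.85 (3.84 ± 0.64). The counts were 5 higher and 6 lower without CA2/3 preparation 1 and 3 and 11 without preparation 3. They became 1 and 2 with the detected-gene covariate, and Plk2 and Jun lost their calls. In granule nuclei met in the CA2/3 dissections Arc was at 1.98, and in pyramidal nuclei met in the DG dissections at 0.58, the opposite order. Of the 11 immediate early genes called, 9 kept their direction between those nuclei, relative to the median. Btg2 (2.51) and Bdnf (3.22), the other higher genes, are named here after their values were seen.

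Of 40 cytosolic ribosomal protein genes 12 were higher and none lower, with a median difference of 2.05. Rplp1 had levels of 10.33, 8.81, 10.18 and 9.48 against 8.02 and 3.66 (4.33 ± 0.90, limma adjusted p = 0.0091), and Rpl8 had 8.59, 10.30, 9.27 and 8.59 against 8.01 and 2.77 (4.27 ± 1.05). Rpl13 followed (3.70 ± 0.76). CA2/3 preparation 3 was low for these 3 genes and preparation 1 lay closer to the granule preparations. Without preparation 1 the count was 35, without preparation 3 it was 5, and in preparations 1 and 3 alone it was 0. Quantile normalization gave 22, and averaging before the log gave 3.

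Nuclei found in the other dissection gave values that were not in the fit. By the granule rule 18 nuclei of the CA2/3 dissections were granule (3 and 15 in preparations 1 and 3), and by the CA2/3 rule 19 nuclei of the DG dissections were pyramidal (16, 0, 1 and 2 in preparations 1 to 4). They were pooled over preparations and are described with no test, and genes are not independent replicates. Of the genes called higher, 81% were also higher in the crossed granule nuclei, relative to the median. Of those called lower, 65.3% (1184 genes) were lower there. Among genes not called, 53.8% of those above the median and 52.1% of those below it kept their side. All 14 largest higher and all 14 largest lower genes kept their side. Calb1 was at 9.02 in granule nuclei of the CA2/3 dissections and 1.41 in pyramidal nuclei of the DG dissections, and Socs2 at 1.97 and 6.62. Only 2 of the 12 ribosomal protein genes called higher kept their side, and the median of the 40 was −0.86. Rplp1 was at 5.67 in the granule nuclei of CA2/3 dissections and 7.62 in the pyramidal nuclei of DG dissections. CA2/3 preparation 3, where this gene was low, gave 15 of the 18 crossed granule nuclei. DG preparation 1 gave 16 of the 19 crossed pyramidal nuclei, so preparation and cell type cannot be told apart here. Of the 17 calcium genes called, 12 kept their side, and of the 30 adhesion genes 24 did.

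**Figure D4:**
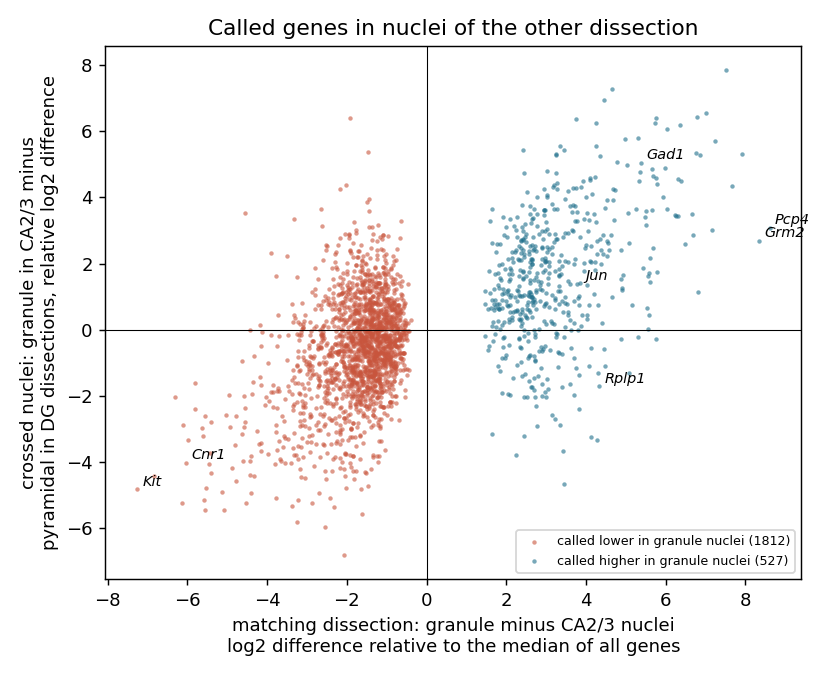
Difference of each called gene in nuclei of the other dissection (vertical axis) against its difference in the matching dissections (horizontal axis), both log2 relative to the median of all genes. Blue points are genes called higher and red points genes called lower. Rplp1 lies in a quadrant of opposite sign, while Pcp4, Grm2, Gad1, Kit and Cnr1 keep their side.

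Markers of other cell types were summed as levels over each list. The oligodendrocyte list of 10 genes summed to 13.1 to 17.3 in granule preparations and to 31.5 and 14.9 in CA2/3 preparations 1 and 3. Mobp, a myelin gene, was lower (−0.99 ± 0.40), but this call was lost in 11 alternatives. Among them were quantile normalization, averaging before the log and the covariate, where the difference was −0.13. St18 was higher (3.41 ± 0.60), with a sign that changed when values were averaged before the log. The astrocyte list of 12 summed to 20.9 to 24.6 and to 27.3 and 28.7. In it Slc4a4, a bicarbonate transporter, was higher (5.77 ± 0.66) and Ntsr2 (−3.49 ± 0.41) and Fgfr3 lower. The calls of Slc4a4 and Fgfr3 were lost with the covariate and that of Ntsr2 with averaging before the log (−2.96). The microglial list summed to 1.45 to 3.41 against 3.38 and 2.12, and the oligodendrocyte precursor list to 7.74 to 10.1 against 11.2 and 9.78. The endothelial and mural list summed to 0.90 to 1.17 against 3.63 and 3.69, with Cldn5 at 0 in every chosen nucleus. The part of these cells in the differences was not tested. In 1 alternative, nuclei with at least 3 markers of 1 list above a value of 10 were left out. Only markers too rarely detected to be tested were counted. Of the 10 oligodendrocyte markers 8 were tested, so no nucleus could be left out for that list. With that limit 2215 genes were called, and none of the 93 called genes described here lost its call.

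Gad1, which makes GABA, was higher although Gad2 was at 0 by the rule. Its level was 4.66, 6.94, 6.41 and 5.75 in granule nuclei against 1.34 and 0.73 (difference 5.38 ± 0.67, limma adjusted p = 0.00022), and it was detected in 51.7% to 76.9% and in 16.2% and 8.70% of nuclei by preparation. In crossed nuclei the level was 4.82 in granule nuclei and 0.00 in pyramidal nuclei. The list of 12 GABAergic markers summed to 9.76 to 11.2 in granule nuclei and to 8.94 and 3.15 in CA2/3 nuclei, and only 2 of the 12 passed the detection filter.

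Marker lists of neighbouring fields had larger sums in CA2/3 than in granule nuclei. The CA1 list of 10 summed to 4.22 to 7.13 in granule nuclei, 22.4 and 15.4 in CA2/3 nuclei and 55.8 and 37 in CA1 nuclei. Of its 6 tested genes 4 were lower in granule nuclei: Mpped1 (−2.60 ± 0.33), Man1a (−2.48 ± 0.50), Dcn (−1.40 ± 0.33) and Nov (−0.79 ± 0.32). Man1a and Nov lost their calls with the covariate and Dcn with averaging before the log (−5.04). Mpped1 was at 3.19 in both CA2/3 preparations and at 9.33 and 9.22 in CA1 nuclei. The mossy cell list of 10 summed to 12.4 to 13 in granule nuclei and 24.8 and 20.3 in CA2/3 nuclei. In CA1 nuclei the same list summed to 24.3 and 18.8, so the larger sum was not particular to CA2/3. Gal, on that list, was at 0 in every chosen nucleus. These sums were not tested.

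Further nuclei of the series were placed beside these levels as a description. Granule nuclei by the same rule numbered 20 in the C57BL/6 DG set of 4 weeks, 60 in that of 2 years, and 40 and 9 in DG sets from vGAT-Cre mice of 12 weeks (Slc32a1tm2(cre)Lowl), which carried a Cre-dependent EYFP reporter from an injected virus and were sorted for the label. Pyramidal nuclei by the CA2/3 rule numbered 30 and 23 in CA1 preparations 1 and 3. Each age was 1 preparation, so no comparison of ages can be made against replicates. Pcp4 was at 10.39 at 4 weeks and 10.71 at 2 years. Calb1 was at 3.08 at 4 weeks and 6.97 at 2 years, and Stmn2 at 8.72 and 0.16. Kit was listed at 0 in both sets. In the vGAT-Cre sets Pcp4 was at 4.41 and 3.46, below all 4 granule preparations of the C57BL/6 mice.

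**Figure D5:**
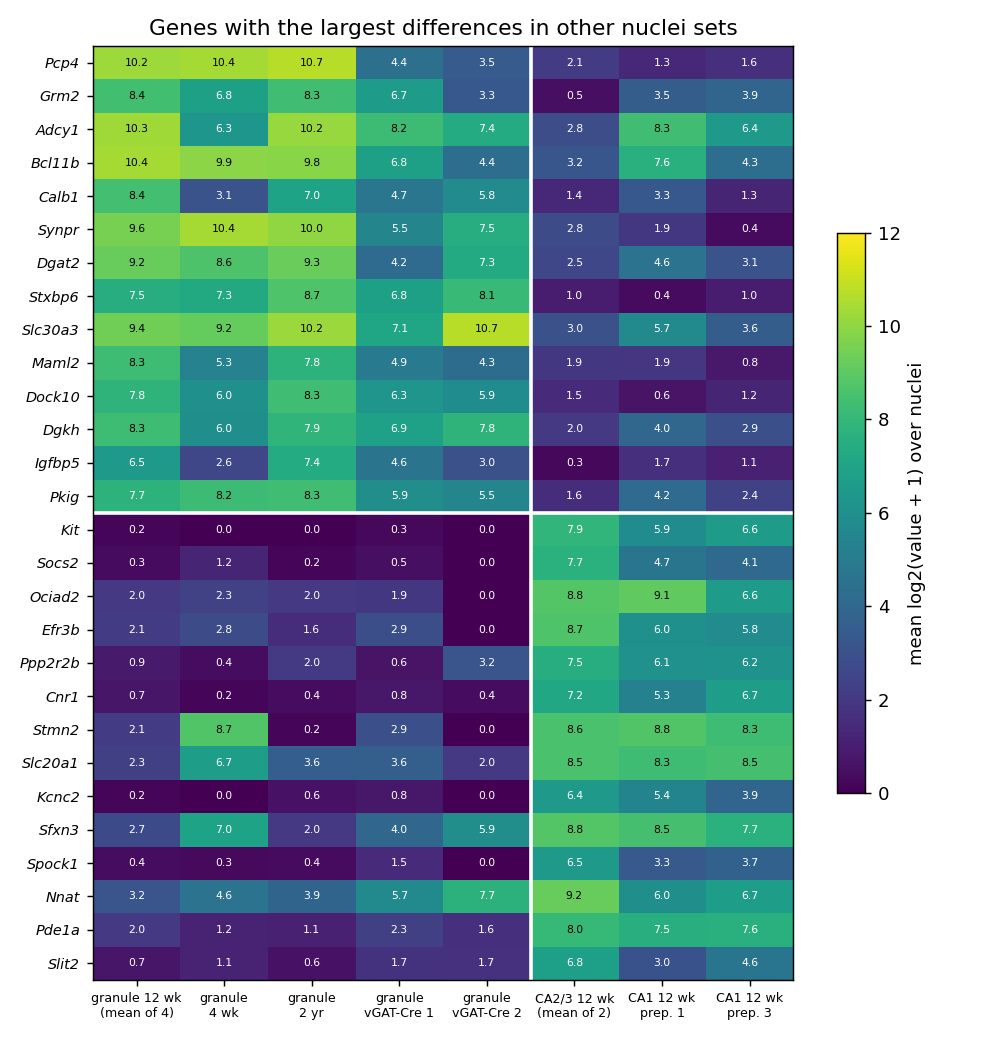
Level of the 28 genes (rows, mean log2(value + 1), colour and printed value) in granule nuclei of several ages and of vGAT-Cre mice and in pyramidal nuclei of CA2/3 and CA1 (columns). The genes of the lower block had levels of 3.01 to 9.09 in CA1 nuclei, and Stmn2, Slc20a1 and Sfxn3 stand higher in the 4-week granule nuclei (8.72, 6.66 and 6.96) than in those of 12 weeks.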

How the data were processed

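Single nuclei of hippocampal dissections were each 1 library. Per the submitters' processing notes, Bowtie2 (version not given) and RSEM 1.27 were used with the mm10 (GRCm38) build. The authors deposited a table of 25392 genes by 924 nuclei as the natural log of a TPM-scale value plus 1. The log base was read from the spacing of low values, and values were back-transformed, where the plan had assumed TPM. Read counts are not given in the sources used here, so the depth of a value is known only through the number of detected genes.

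The choice of nuclei, the gene lists and the tests were made with earlier results of these data known. Per preparation, log2(value + 1) was averaged over the chosen nuclei, with both plates of DG preparation 1 pooled. A gene was tested when its value was above 1 in at least 20% of the nuclei of 1 preparation. The comparison used limma 3.58.1 (R 4.3.3) with a variance trend, two-sided, with Benjamini-Hochberg adjustment at 0.05, after a check on simulated data. Standard errors and p-values belong to the unshifted differences, while printed differences are relative to the median of all genes. The 13 genes of the rule were not tested. Genes were named by a rule: per direction the 14 largest differences among called genes whose preparations did not overlap (sex-linked genes and symbols without a known function left out), and up to 4 called members of each of 28 lists. Doublets were not called: nuclei with at least 3 markers of another cell type, counting only untested markers, were left out in 1 alternative. Promoter windows came from RefSeq (GRCm38.p6), and tables were handled with Python 3.11.15 and pandas 2.3.3. Alternatives changed the scaling, pseudocount, detection filter, choice of nuclei, covariates and preparations. Some results are not reported here because the items are withheld.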

Additional observations from a re-analysis of the deposited data

Results flagged for a closer look

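In 6 of the 93 called genes described above, 1 of the 4 granule preparations lay apart from the other 3 by more than the 95% critical value of Dixon's test, which chance gives in about 1 in 20 groups. Calb1 was at 7.64 in granule preparation 1 and at 8.62 to 8.73 in the others. Epha7 was at 9.38 in preparation 1, where the others were at 9.83 to 9.92. Jun was at 5.72 in preparation 2 and at 6.96 to 7.18 in the others. Marcks was at 5.08 in preparation 2, with the others at 5.71 to 5.76. Nell1 at 0.17 and Nov at 0.12 in preparation 1 were the only granule values above 0 of these genes. With the other granule preparations at 0 any value above 0 is flagged, so the rate of 1 in 20 does not apply to Nell1 and Nov. For each of the 6 genes the granule preparations stayed apart from both CA2/3 preparations.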

How the results depend on the processing

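Of the tested genes 21.2% (2339) were called. The share was 7.32% (808 genes) with the log2 of the mean value per preparation, 11.3% (2314) with no filter on detection, 5.27% with detected genes per nucleus added as a covariate, 10.5% (1113) with all nuclei of the dissections and 5.43% with preparations 1 and 3 alone. With the preparation number as a replicate block it was 10.9% (1199 genes). A filter of detection in 50% of nuclei left 1443 genes, 24.4% of fewer tested. The numbers shared by both cell types (1 and 3) gave correlations of 0.095 and −0.025. With 2 CA2/3 preparations the values of a granule preparation mirror each other (0.095 and −0.095 for granule preparation 1). They therefore cannot show whether the numbers pair the samples, and the reported fit did not pair them. Leaving out 1 preparation at a time gave 12.8% to 30.5%: the lowest were 12.8% (1405 genes) without granule preparation 1 and 13% (1428) without granule preparation 3, and a lone CA2/3 preparation was assumed to vary like the granule ones. The share of calls that were higher in granule nuclei was 22.5%, and it was 49.1% after quantile normalization, 57.4% with the covariate, 48.5% with the log2 of the mean value, 35.9% without CA2/3 preparation 1 and 15.7% without CA2/3 preparation 3. Of 3 alternatives chosen after seeing the data, the log2 of the mean value with nuclei rescaled to 1 total gave 9.62% (1061), preparations 1 and 3 with the replicate block 10.5% (1130), and leaving out nuclei with markers of another cell type 20.2% (2215). The other 8 alternatives gave 16.2% to 21.2%. Among genes called in any of these fits and in the one reported, none had opposite signs. Of the 93 genes described, 46 kept their call in every fit. The difference relative to the median had the opposite sign for Gap43 with the covariate (0.089) and for St18 with the log2 of the mean value (−0.085). The causes of these changes were not tested. The difference in detected genes was −1447 to −769 without 1 preparation at a time. With only 2 CA2/3 preparations, the spread of CA2/3 nuclei between preparations is poorly known.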
